A study of Mus musculus with 24 samples.

Results

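The comparison described here set the lungs of 3 hyperoxia-exposed gasdermin D knockout mice (KO-O2, animals GSD061, GSD097 and GSD493) against those of 3 hyperoxia-exposed wild-type mice (WT-O2, animals GSD403, GSD405 and GSD406). Its members were all genes on chromosomes 1 to 19 with enough counts to be tested, which came to 16202 of the 36109 genes in the lung table and of the 16819 that passed the count filter over all 12 lungs. A further 568 tested genes lay on X or Y, 13 were mitochondrial, 4 sat on unplaced scaffolds and 32 had no chromosome in the annotation used, and these were left out. The mice were neonates kept in 85% O2 or in room air (RA, 21% O2) from postnatal day 1 to day 14, and lungs were taken on day 15. The knockout mice were on the C57/B6 background, carried a CRISPR/Cas9 deletion of 38 bp in exon 5 of Gsdmd in the germline, and were bred from heterozygous parents together with their WT littermates. The remaining 6 lungs were 3 WT-RA and 3 KO-RA, and the series also held 12 retinas of other mice, from a retinopathy model with 75% O2 from day 7 to day 12 and collection on day 18. The comparison asked how loss of gasdermin D changed RNA levels in lungs under hyperoxia, a model of bronchopulmonary dysplasia (BPD).

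Gasdermin D is the pore-forming protein of pyroptosis, a lytic and inflammatory form of cell death. Inflammatory caspases cut it in response to inflammasomes, its amino-terminal fragment assembles into pores in the plasma membrane, and interleukin-1β and interleukin-18 leave the cell through them. Prolonged high oxygen injures the alveolar epithelium and capillaries of the immature lung, recruits macrophages and neutrophils, and arrests the formation of alveoli.

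The deleted bases lie in exon 5 of Gsdmd, which is shown because it carries the mutation that defines the KO lungs. In the GRCm38 assembly this coding exon, number 5 of 11 in its transcript, spans 103 bases on the plus strand at chr15:75865423-75865525. The part of exon 5 that the deletion took away was not given in the sources used here, so no base is set in capitals.

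Gsdmd exon 5: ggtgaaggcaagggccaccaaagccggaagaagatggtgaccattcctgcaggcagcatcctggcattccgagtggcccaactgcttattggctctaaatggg

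Of the 1461 coding bases of the transcript, 582 lie before this exon, and 38 divided by the codon length of 3 leaves a remainder of 2, so the deletion does not keep the reading frame. Gsdmd transcripts (ENSMUSG00000022575) were measured in every KO lung. In CPM, the count of a gene scaled to a common library total, Gsdmd stood at 32.1, 36.4 and 34.8 in the WT-O2 lungs and at 11.7, 13.1 and 16.3 in the KO-O2 lungs. The groups did not overlap, and KO-O2 lungs held 39.8% of the WT-O2 mean. Gsdmd fell by 1.33 on the log2 scale (SE 0.11, adjusted p = 8.3e-05, edgeR quasi-likelihood test with Benjamini-Hochberg adjustment). In room air the levels were 41.4, 42.3 and 40.6 CPM in WT-RA against 24.8, 24.5 and 22.6 CPM in KO-RA, a log2 difference of -0.79 with an adjusted p of 0.014 by the same edgeR test. The difference between the genotype effects in hyperoxia and in room air was -0.54 (adjusted p = 0.42 for the interaction in edgeR). In the retinas of other mice the Gsdmd log2 difference was -1.17 under 75% O2 and -1.58 in room air, with adjusted p-values of 0.48 and 0.35 in edgeR. None of the 10 nearest tested genes, 5 on each side of Gsdmd, reached an unadjusted p under 0.05. Among them Tigd5 had the smallest, at 0.060 in edgeR, with 4.06, 4.23 and 5.30 CPM in WT-O2 and 3.46, 3.58 and 3.61 CPM in KO-O2 lungs, and the adjacent genes Zc3h3 and Naprt differed by -0.06 and -0.25 on the log2 scale.

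The 6 hyperoxia libraries held 29241964 to 29604069 estimated counts each, so depth hardly differed between them. They differed in other ways. The summed level of the erythroid marker list, mostly globin RNA, was 3782, 5068 and 4045 CPM in the WT-O2 lungs but 26537, 29402 and 6994 CPM in the KO-O2 lungs GSD061, GSD097 and GSD493. The room-air lungs lay between 13984 and 28256 CPM. Y-linked transcripts marked all 3 KO-O2 mice and 1 of the 3 WT-O2 mice (GSD406) as male, so genotype and sex were partly confounded among the hyperoxia lungs. Among the room-air lungs they marked 2 of the 3 KO-RA and 0 of the 3 WT-RA mice, so the same held there. Only autosomal genes were described. For Gsdmd the log2 difference was -1.08 without GSD061 and GSD097, -1.34 in Y-marked mice alone and from -1.48 to -1.23 without single lungs. For the other genes past the adjusted threshold and for many lists, values from some or all of these settings are given in the same paragraph. Without GSD061 and GSD097 the only KO-O2 lung is GSD493, and in Y-marked mice the only WT-O2 lung is GSD406. Values from either setting rest on that single lung.

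Few genes passed the test. Of the 16202 autosomal genes, 3 were called, which took an unadjusted p under 0.05 with an adjusted p under 0.1 and at least a 2-fold change, and all of them were lower in KO-O2 lungs. The background over all 16819 tested genes was 4 called, or 0.0238%. With the fold threshold dropped, 1 autosomal gene rose and 5 fell, against 7 of all tested genes (0.0416%). Unadjusted p-values under 0.05 were reached by 445 autosomal genes that were higher and 555 that were lower, with a background of 2.78% of all tested genes in the first direction and 3.43% in the second. All 3 KO-O2 lungs lay above all 3 WT-O2 lungs for 1022 autosomal genes and below them for 942, and over all tested genes the shares were 6.36% and 5.80%. The log2 differences were centred on 0 (median -0.00), and 93.1% of the genes lay within 0.5 of 0. DESeq2 on the same counts called 27 autosomal genes, 15 higher and 12 lower. In edgeR the number called was 1 without GSD061, 1 without GSD097, 21 without GSD493, 7 without WT-O2 lung GSD405 and 6 without WT-RA lung GSD400, and 17 of the 21 without GSD493 were higher, with Hbb-bt and Rsad2 among them. Within the Y-marked mice 40 were called, 10 higher and 30 lower, with a single WT-O2 lung taken to vary like the other groups.

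**Figure D1:**
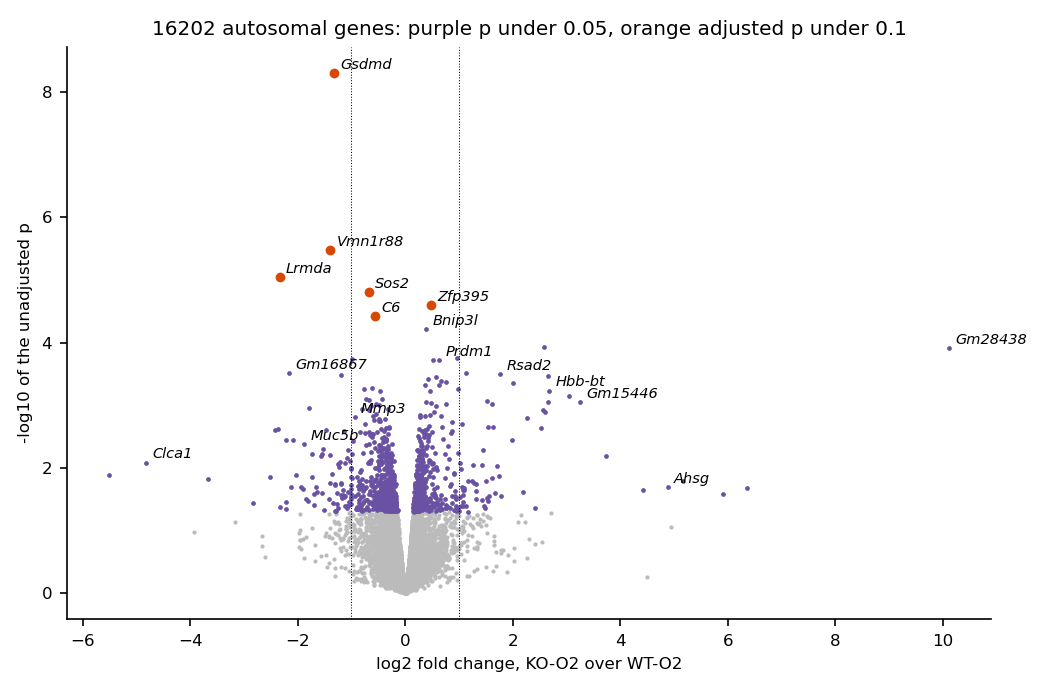
Log2 difference KO-O2 minus WT-O2 (x axis) against the -log10 of the unadjusted edgeR p (y axis) for the 16202 autosomal genes, 1 point a gene. Gsdmd stands alone at the top left, the 6 genes with an adjusted p under 0.1 are orange, dotted lines mark a 2-fold change, and the purple points far to the right include Hbb-bt and other erythroid genes.

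Besides Gsdmd, Vmn1r88 and Lrmda were called. Vmn1r88 (ENSMUSG00000117853) is annotated as a member of the vomeronasal type 1 receptor family, chemosensory receptors of the accessory olfactory system. Its levels were 9.65, 9.36 and 6.15 CPM in WT-O2 and 3.53, 2.80 and 3.21 CPM in KO-O2 lungs. The groups did not overlap, and Vmn1r88 fell by 1.40 on the log2 scale (SE 0.19, adjusted p = 0.028 in edgeR). In room air the log2 difference of Vmn1r88 was -0.16 (adjusted p = 0.86 in edgeR), while the difference between the 2 exposures, -1.24, had an unadjusted p of 0.00042 and an adjusted p of 0.28 in edgeR. The 6 room-air lungs lay between 2.84 and 4.01 CPM for Vmn1r88, near the KO-O2 lungs and under the WT-O2 lungs. In the retinas of other mice, Vmn1r88 differed by -0.10 under 75% O2 and by 0.40 in room air, neither of which passed. The Vmn1r88 call did not hold in every setting. It was lost without GSD061 (adjusted p = 0.14 in edgeR), without GSD097 (0.17), without WT-O2 lung GSD403 (0.12), with sex as a term (-1.27, 0.21) and with the erythroid level as a term (-1.17, 0.66). In Y-marked mice alone the log2 difference of Vmn1r88 was -0.95 (adjusted p = 0.18 in edgeR), and without GSD061 and GSD097 it was -1.38 (adjusted p = 0.65).

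Lrmda (ENSMUSG00000063458), which is known for its part in the differentiation of pigment cells, was at 2.62, 2.68 and 5.74 CPM in WT-O2 and at 0.665, 0.956 and 0.569 CPM in KO-O2 lungs. Every KO-O2 lung lay under 1 CPM and every WT-O2 lung above 2.6 CPM. Lrmda fell by 2.33 on the log2 scale (SE 0.35, adjusted p = 0.037 in edgeR), the largest decrease of the called genes. The same direction was seen in the 6 room-air lungs, which are other mice. There Lrmda was at 2.83, 3.94 and 4.57 CPM in WT-RA and at 1.23, 0.793 and 1.22 CPM in KO-RA, and it fell by 1.80 on the log2 scale (adjusted p = 0.046 in edgeR). In retina, Lrmda levels of the genotypes lay closer together, with log2 differences of -0.27 under O2 and 0.31 in room air. The Lrmda call was lost without GSD061 (-2.28, adjusted p = 0.34 in edgeR), without GSD097 (-2.57, 0.17), without both (-2.69, 0.65), with the erythroid level as a term (-3.16, 0.37) and with limma-voom (-2.25, 0.16). It was called with sex as a term and in Y-marked mice alone, where the log2 difference was -2.97 (adjusted p = 0.0014 in edgeR).

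The other 3 autosomal genes with an adjusted p under 0.1 moved by less than 2-fold. Sos2 (ENSMUSG00000034801), a guanine nucleotide exchange factor that activates Ras downstream of growth factor receptors, was at 137, 166 and 119 CPM in WT-O2 and at 95.6, 88.4 and 80.8 CPM in KO-O2 lungs, and fell by 0.67 on the log2 scale (SE 0.11, adjusted p = 0.052 in edgeR). The highest KO-O2 lung lay well under the lowest WT-O2 lung. Zfp395 (ENSMUSG00000034522), a zinc finger transcription factor, was at 32.1, 33.4 and 29.99 CPM in WT-O2 and at 44.2, 46.3 and 42.2 CPM in KO-O2 lungs, and rose by 0.47 on the log2 scale (SE 0.078, adjusted p = 0.071 in edgeR). It was the only autosomal gene that rose. C6 (ENSMUSG00000022181), a component of the complement membrane attack complex, was at 32.4, 30.1 and 28.6 CPM in WT-O2 and at 20.8, 20.7 and 20.5 CPM in KO-O2 lungs, and fell by 0.55 on the log2 scale (SE 0.095, adjusted p = 0.091 in edgeR). The KO-O2 lungs were nearly equal to each other for C6. In room air the log2 differences were -0.08 for Sos2, -0.03 for Zfp395 and -0.24 for C6, and none of them passed the test in edgeR. The room-air lungs of both genotypes resembled the KO-O2 lungs in level for Sos2 and Zfp395. Sos2 lay between 73.3 and 85.1 CPM and Zfp395 between 44.1 and 50.5 CPM over the 6 room-air lungs, so the WT-O2 lungs were the group apart in both genes. The difference between the exposures was -0.59 for Sos2 and 0.50 for Zfp395, with adjusted p-values of 0.39 and 0.28 for the interaction in edgeR. C6 was at 36.4, 39.1 and 40.3 CPM in WT-RA and at 29.9, 30.4 and 37.4 CPM in KO-RA lungs, above the KO-O2 lungs in each animal. These 3 genes passed the adjusted threshold by a small margin. Sos2 missed it without GSD061 (-0.74, adjusted p = 0.14 in edgeR), without GSD097 (-0.67, 0.32), without GSD403 (-0.69, 0.15), with sex as a term (-0.60, 0.29) and in Y-marked mice, where its log2 difference was -0.43. Zfp395 missed it when any hyperoxia lung but GSD493 was left out (adjusted p from 0.10 to 0.60 in edgeR), with sex as a term (0.55) and in Y-marked mice (0.56). C6 missed it when any of the 6 hyperoxia lungs was left out (adjusted p from 0.10 to 0.37 in edgeR), with sex as a term (-0.57) and in Y-marked mice (-0.47). Without GSD061 and GSD097, the log2 differences were -0.80 for Sos2, 0.41 for Zfp395 and -0.57 for C6, none of which passed.

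**Figure D2:**
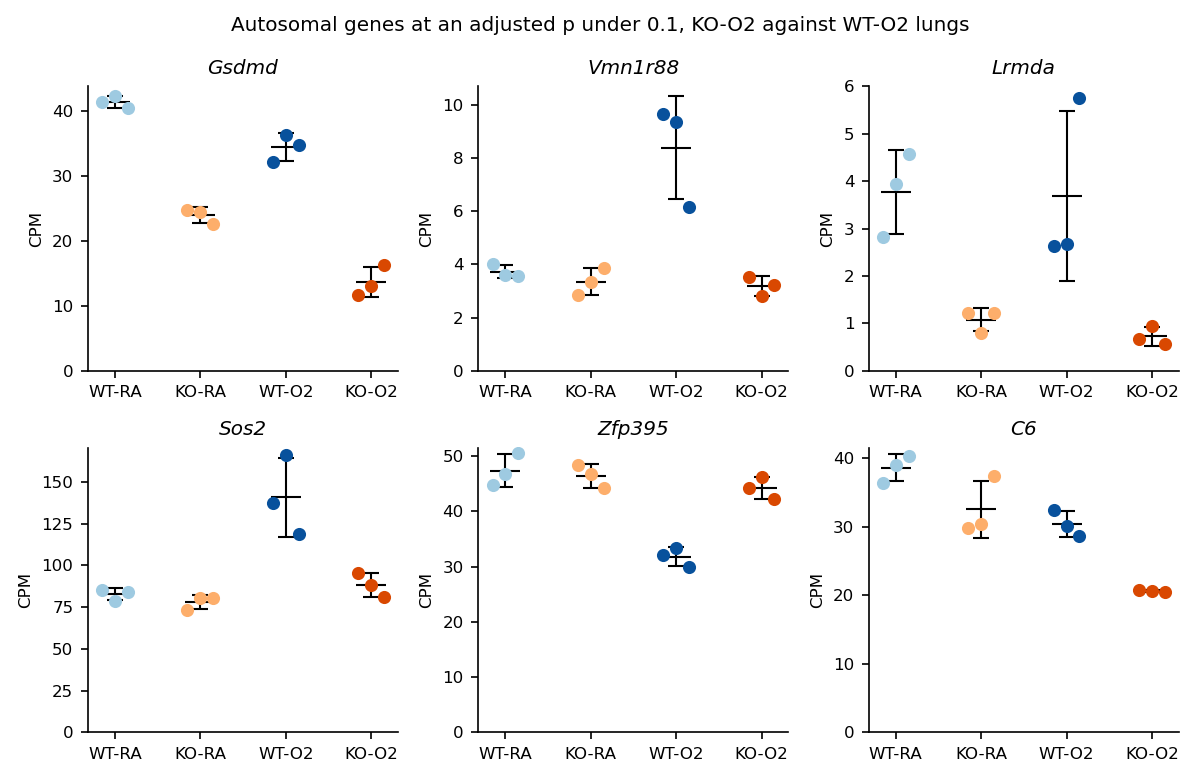
Levels in CPM (y axis) of the 6 autosomal genes with an adjusted p under 0.1, 1 panel a gene and 1 point a lung, with the mean and SD as bars, for WT-RA, KO-RA, WT-O2 and KO-O2 (x axis). In each panel the 3 KO-O2 lungs lie apart from the 3 WT-O2 lungs, while in room air the genotypes separate for Gsdmd and Lrmda.

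Further genes with groups that did not overlap missed the adjusted threshold in edgeR, and their values follow. Bnip3l, a mitochondrial receptor of mitophagy that clears mitochondria from maturing reticulocytes, was at 95.3, 93.1 and 90.3 CPM in WT-O2 and at 118, 129 and 119 CPM in KO-O2 lungs (log2 difference 0.39, adjusted p = 0.13 in edgeR). Prdm1, the transcription factor Blimp-1 of plasma cells and effector lymphocytes, was at 30.2, 21.9 and 23.5 CPM against 43.2, 38.4 and 35.7 CPM (0.63). Satb1, a chromatin organizer of lymphoid cells, was at 11.8, 11.8 and 12.7 CPM against 17.7, 17.8 and 16.2 CPM (0.51). In all 3 genes the lowest KO-O2 lung lay above the highest WT-O2 lung. On the lower side, Hist2h3c2, a histone H3 gene, was at 4.91, 4.78 and 5.84 CPM in WT-O2 and at 2.94, 2.02 and 2.88 CPM in KO-O2 lungs (-0.99, adjusted p = 0.23 in edgeR). Cyp7b1, an oxysterol 7α-hydroxylase, was at 9.14, 10.9 and 9.59 CPM against 5.70, 6.62 and 4.98 CPM (-0.77). Fcrls, an Fc receptor-like scavenger receptor of macrophages, was at 25.2, 23.7 and 26.9 CPM against 15.8, 19.7 and 14.1 CPM (-0.61). These 3 genes showed the reverse order, with every KO-O2 lung below every WT-O2 lung.

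The largest log2 difference belonged to a gene that cannot be measured on its own. Gm28438 was at 0, 1.20 and 0 CPM in WT-O2 and at 432, 463 and 451 CPM in KO-O2 lungs. It is a nuclear copy nearly identical to mitochondrial Nd3, and the summed level of both was 450, 432 and 340 CPM in WT-O2 and 451, 499 and 481 CPM in KO-O2 lungs. To which copy the reads belong cannot be told apart, and no fold is given for it. Among the other genes with the largest differences, Tmem267, which encodes a transmembrane protein, was at 14.97, 11.3 and 11.9 CPM in WT-O2 and at 3.74, 2.09 and 1.57 CPM in KO-O2 lungs (-2.37, adjusted p = 0.46 in edgeR). Fer1l6, of the ferlin family, was at 0.955, 3.06 and 3.65 CPM against 0.630, 0.602 and 0.201 CPM (-2.42). Zbtb16, a zinc finger transcription factor induced by glucocorticoids, was at 12.2, 16.7 and 11.8 CPM against 2.13, 3.04 and 3.51 CPM (-2.22, adjusted p = 0.77 in edgeR). The spread of these genes over all 12 lungs was wide, and none of them passed in the edgeR fit of all 12 lungs. A fit of only the 6 hyperoxia lungs called Zbtb16 and Tmem267, and DESeq2 called Tmem267 and Fer1l6. Zbtb16 was also called in edgeR without WT-RA lung GSD400.

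The erythroid markers were the list with the most members apart between the groups. They comprise globins, enzymes of heme synthesis and proteins of the red cell membrane and skeleton, and a lung holds such RNA in the reticulocytes of its blood. Of the 40 autosomal members tested, 20 were higher in KO-O2 lungs and 1 was lower at an unadjusted p under 0.05, with a median log2 difference of 0.43, and none passed the adjusted threshold in edgeR. In bulk lung, more or fewer cells of a type and more or less RNA per cell cannot be told apart. Upstream bases of 4 of these genes are shown because the members move together: Sptb (β-spectrin), Bpgm (the enzyme that makes 2,3-bisphosphoglycerate), Hbb-bt (adult β-globin) and Epb42 (membrane protein 4.2). They are the 4 list members with the smallest p that the RefSeq promoter table holds, and Slc4a1 is named only. Each run is the 250 bases before the annotated start in GRCm38.p6, read 5′ to 3′ on the gene's own strand, with capitals for AGATAA or TGATAA (the GATA factor motif, on both strands, so also as TTATCT or TTATCA) and for CACCC (the motif of Krüppel-like factors, likewise also as GGGTG). The places are chr12:76710548-76710797 (minus strand) for Sptb, chr6:34476106-34476355 (plus) for Bpgm, chr7:103813924-103814173 (minus) for Hbb-bt and chr2:121036878-121037127 (minus) for Epb42.

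Sptb: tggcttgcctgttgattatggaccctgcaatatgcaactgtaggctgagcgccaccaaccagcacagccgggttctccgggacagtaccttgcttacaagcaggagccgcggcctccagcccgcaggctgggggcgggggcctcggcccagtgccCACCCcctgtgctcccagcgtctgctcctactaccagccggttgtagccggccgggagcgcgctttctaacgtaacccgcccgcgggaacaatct

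Bpgm: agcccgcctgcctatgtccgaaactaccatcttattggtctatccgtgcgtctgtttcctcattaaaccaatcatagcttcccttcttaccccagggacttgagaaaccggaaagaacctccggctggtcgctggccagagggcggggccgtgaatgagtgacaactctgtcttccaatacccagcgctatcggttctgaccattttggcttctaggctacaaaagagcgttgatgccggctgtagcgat

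Hbb-bt: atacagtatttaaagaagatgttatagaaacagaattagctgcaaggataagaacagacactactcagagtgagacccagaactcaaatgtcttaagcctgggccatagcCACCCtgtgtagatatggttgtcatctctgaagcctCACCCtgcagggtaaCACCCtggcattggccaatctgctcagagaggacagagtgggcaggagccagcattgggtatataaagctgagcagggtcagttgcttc

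Epb42: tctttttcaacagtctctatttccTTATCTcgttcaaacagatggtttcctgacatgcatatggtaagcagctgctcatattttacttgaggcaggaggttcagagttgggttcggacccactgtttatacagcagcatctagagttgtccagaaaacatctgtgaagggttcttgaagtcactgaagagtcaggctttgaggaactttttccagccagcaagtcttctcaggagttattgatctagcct

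The Hbb-bt run held 3 matches to CACCC, the Sptb run 1, the Epb42 run 1 match to the GATA motif, and the Bpgm run none of either. Of the 40 erythroid members, 27 were in the table, with 36 promoters. The GATA motif was in 44.4% of those 36 and in 16.6% of all 32851 promoters, and CACCC in 72.2% against 52% of all. A match is a string of letters in this window and was not tested as a site.

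The lungs of the group did not share the erythroid difference evenly. Hbb-bt was at 76.0, 92.6 and 83.2 CPM in WT-O2 lungs and at 681, 772 and 162 CPM in the KO-O2 lungs GSD061, GSD097 and GSD493 (log2 difference 2.68, adjusted p = 0.31 in edgeR). Slc4a1, the band 3 anion exchanger of the red cell membrane, was at 6.92, 4.96 and 7.13 CPM against 40.8, 41.1 and 9.87 CPM (2.27). In both genes GSD061 and GSD097 were far above the WT-O2 lungs, and GSD493 was above them by less. Sptb showed the same order, at 2.62, 2.44 and 2.74 CPM in WT-O2 and at 5.56, 6.12 and 3.61 CPM in KO-O2 lungs (0.97, adjusted p = 0.23 in edgeR). Bpgm was at 49.9, 51.8 and 41.0 CPM against 115, 129 and 67.6 CPM (1.13, adjusted p = 0.30 in edgeR). Over the whole list, the median log2 level above the WT-O2 mean was 0.53 in GSD061, 0.54 in GSD097 and 0.17 in GSD493. All 3 KO-O2 lungs lay above all 3 WT-O2 lungs for 19 of the 40 genes and below them for 2. Over all tested genes the shares were 6.36% and 5.80%. With GSD061 and GSD097 left out, 6 members were higher and 0 lower with an unadjusted p under 0.05 in edgeR, the median was 0.17, and none passed the adjusted threshold. Within the Y-marked mice 7 were higher and 1 lower.

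**Figure D3:**
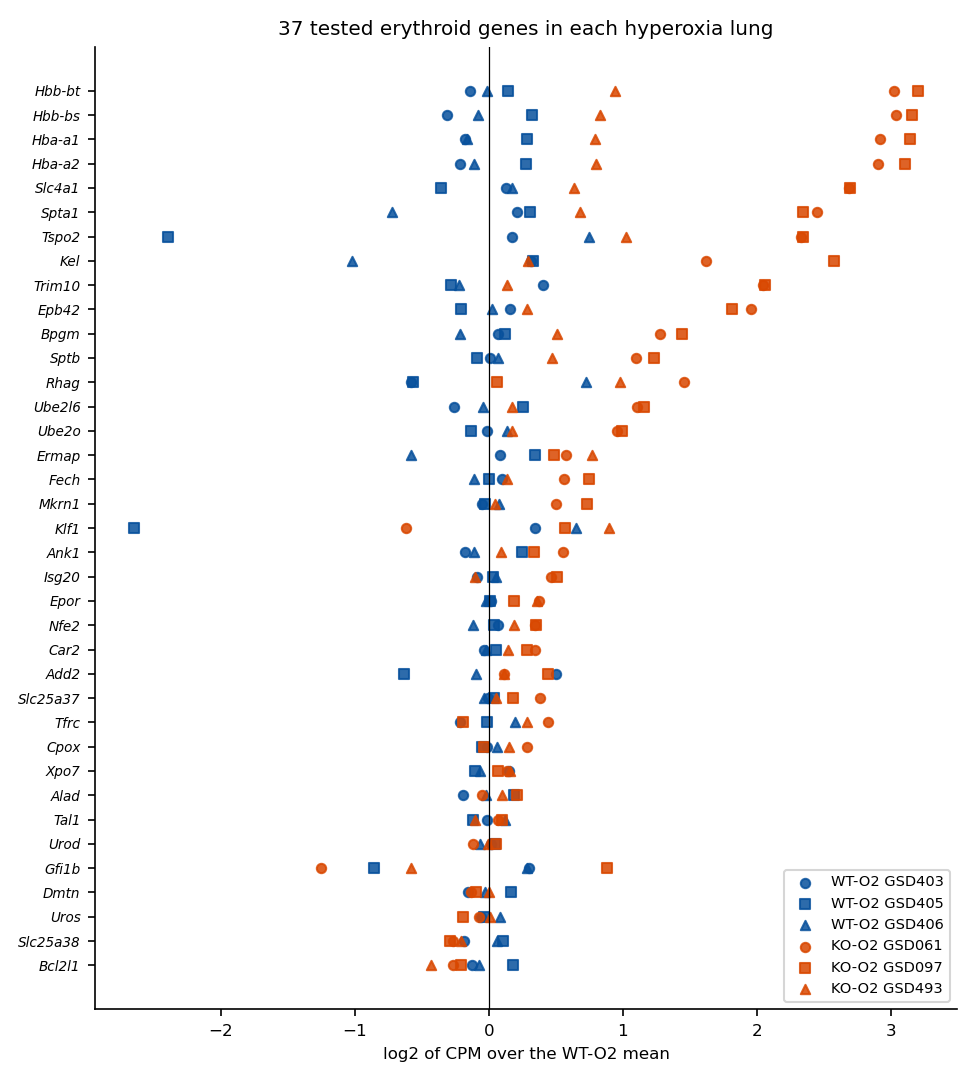
Log2 level relative to the WT-O2 mean (x axis) of 37 of the 40 autosomal erythroid genes (y axis) in the 6 hyperoxia lungs, with 1 symbol a lung. The lungs GSD061 and GSD097 are high for the globins and membrane proteins, and GSD493 is higher than WT-O2 by less. In the lower part some genes, such as Urod, stay close to 0 in all lungs, while Gfi1b spreads widely within both groups.

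Genes that direct red cell development were chosen for mention after their values were seen. The transcription factors Klf1, Tal1 and Gfi1b and the erythropoietin receptor Epor had unadjusted p-values from 0.17 to 0.95 in edgeR, and that test detected no difference in them with 3 mice a group. Klf1, Tal1 and Gfi1b overlapped between the groups, and Klf1 ranged from -2.64 to 0.65 on the log2 scale around the WT-O2 mean within WT-O2. Epor did not overlap, at 0.38, 0.19 and 0.36 in GSD061, GSD097 and GSD493 and at most 0.014 in WT-O2. Nor did the transcription factor Nfe2, at 0.34, 0.355 and 0.19 against at most 0.07. In room air, where no erythroid member fell at an unadjusted p under 0.05 and 6 were higher in KO-RA, the list median was 0.19. Rsad2, the interferon-induced antiviral enzyme viperin, followed the same mice. It was at 4.88, 4.37 and 4.56 CPM in WT-O2 and at 20.2, 20.5 and 6.46 CPM in KO-O2 lungs (1.77, adjusted p = 0.30 in edgeR). Of the 56 interferon-stimulated genes, however, Rsad2 was 1 of only 2 with an unadjusted p under 0.05, the other being Mx1, an antiviral GTPase, at 6.51, 4.71 and 5.00 CPM against 3.29, 3.58 and 4.05 CPM (-0.57). The median of the interferon-stimulated list was -0.06 in hyperoxia, while in room air it was -0.47 with 36 of the 56 genes lower and 0 higher in KO-RA at an unadjusted p under 0.05 in edgeR.

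Complement genes lay mostly lower in KO-O2 lungs. Of 27 tested, 8 were lower and 1 was higher at an unadjusted p under 0.05, with C6 the only member past the adjusted threshold, and the median log2 difference was -0.21 beside -0.00 over all autosomal genes. The C1q chains, which start the classical pathway and are made by macrophages, were among the lower ones. C1qb was at 82.5, 88.0 and 99.1 CPM in WT-O2 and at 63.0, 74.9 and 65.9 CPM in KO-O2 lungs (-0.40, adjusted p = 0.50 in edgeR), and C1qa and C1qc differed by -0.37 and -0.36. The groups did not overlap for any of the 3 chains. Serping1, the C1 inhibitor, was at 810, 890 and 899 CPM against 606, 747 and 650 CPM (-0.38, adjusted p = 0.41 in edgeR), again without overlap. The higher member was Cd59a, a membrane protein that blocks the attack complex, at 28.8, 34.5 and 29.9 CPM against 42.2, 42.9 and 49.6 CPM (0.53, adjusted p = 0.40 in edgeR). In the room-air lungs Cd59a reached at most 34.5 CPM in WT-RA and at least 42.2 CPM in KO-RA, and there it rose by 0.69 on the log2 scale (adjusted p = 0.061 in edgeR). Without GSD061 and GSD097, 6 complement genes were lower and 1 was higher, with a median of -0.41, and in Y-marked mice the counts were 8 and 1.

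Antigen presentation genes were lower by smaller amounts. Of 25, 7 were lower and 0 higher at an unadjusted p under 0.05, none passed the adjusted threshold in edgeR, and the median was -0.17. The class II chains of dendritic cells, B cells and macrophages led the list. H2-Aa was at 212, 226 and 256 CPM in WT-O2 and at 164, 185 and 196 CPM in KO-O2 lungs (-0.35, adjusted p = 0.50 in edgeR), and H2-Ab1 was at 227, 238 and 284 CPM against 160, 200 and 221 CPM (-0.37). H2-Eb1 was at 106, 103 and 133 CPM against 75.3, 86.8 and 99.0 CPM (-0.39). The highest KO-O2 lung lay just under the lowest WT-O2 lung in all 3 class II genes. Without GSD061 and GSD097 1 member was lower at an unadjusted p under 0.05 in edgeR and the median was again -0.17, and in Y-marked mice 9 were lower. Leaving out GSD061 alone gave 4 lower members and a median of -0.06.

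**Figure D4:**
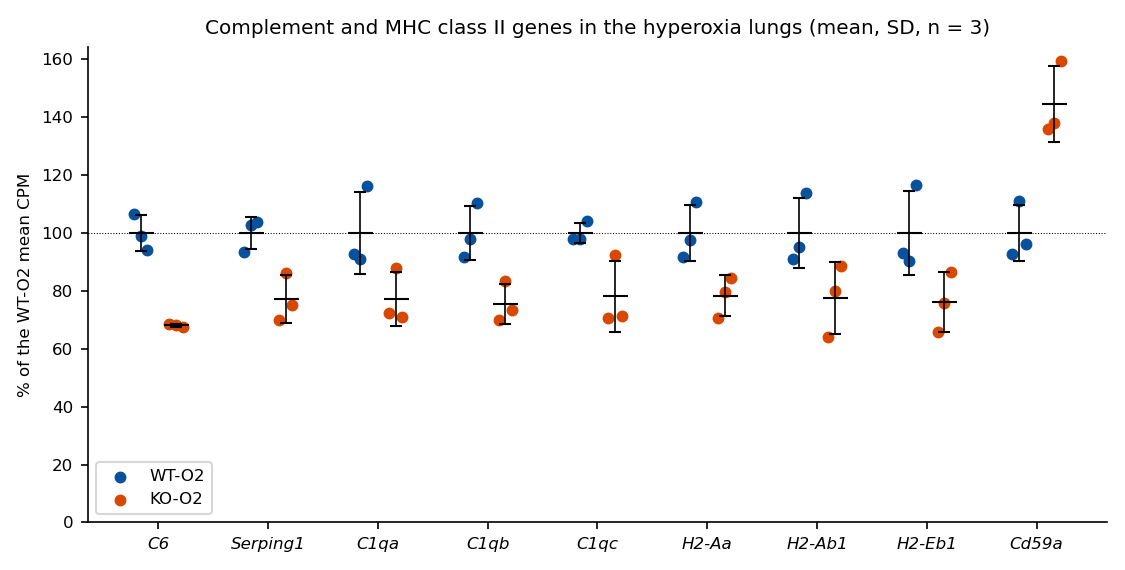
Level of complement and class II genes as a percentage of the WT-O2 mean (y axis, starting at 0) in the 6 hyperoxia lungs, 1 point a lung, with the mean and SD as bars. For C6, Serping1, the C1q chains and the class II genes the KO-O2 points lie below the WT-O2 points, and for Cd59a they lie above.

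Macrophage and monocyte markers leaned the same way, but the C1q chains are in this list too, so it is not independent of the complement list. Of 28, 5 were lower and 0 higher at an unadjusted p under 0.05, with a median of -0.17, and of the 19 alveolar macrophage markers 5 were lower and 0 higher, with a median of -0.09. None passed the adjusted threshold in edgeR. The summed level of the macrophage and monocyte list overlapped between the groups, at 2136, 2086 and 2329 CPM in WT-O2 and 2108, 2224 and 1879 CPM in KO-O2 lungs. That of the alveolar macrophage list did too, at 738, 718 and 898 CPM against 592, 742 and 684 CPM. Trem2, a lipid receptor of macrophages, was at 11.8, 14.6 and 15.6 CPM against 10.4, 12.6 and 13.2 CPM (-0.21, adjusted p = 0.88 in edgeR). Neutrophil markers had 2 lower and 0 higher members of 24, a median of 0.06 and summed levels of 631, 708 and 732 CPM in WT-O2 and 500, 709 and 646 CPM in KO-O2 lungs, which overlap. The part of these cell types in the lower complement and class II levels was not tested. In room air 16 of the 19 alveolar macrophage markers were lower in KO-RA at an unadjusted p under 0.05. These counts rested on single lungs. Without WT-O2 lung GSD406 alone 2 macrophage and monocyte markers and 1 alveolar macrophage marker were lower at an unadjusted p under 0.05 in edgeR, and without GSD061 or GSD405 3 of the former were. For the alveolar macrophage list the number was 2 without GSD493 and 3 without GSD061. Without GSD061 and GSD097 the medians were -0.36 for macrophages and monocytes and -0.38 for alveolar macrophages, with GSD493 as the only KO-O2 lung. The Y-marked mice held GSD406 as the only WT-O2 lung, so they give no check on these counts.

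The chemokine and interleukin-17 signalling lists had larger shares of lower members in KO-O2 lungs (18.75% and 15.38%) than all autosomal genes (3.43%). The numbers changed with the lungs included. Of 48 chemokine genes and receptors, 9 were lower and 0 higher at an unadjusted p under 0.05 (median -0.12), and none passed the adjusted threshold in edgeR. Ccl28, a mucosal chemokine of epithelia, was at 2.39, 1.93 and 1.72 CPM in WT-O2 and at 0.455, 0.531 and 0.301 CPM in KO-O2 lungs (-2.22, adjusted p = 0.51 in edgeR), without overlap. Cxcl16, a membrane-bound chemokine of macrophages and epithelium, was at 88.9, 94.6 and 96.3 CPM against 79.3, 83.1 and 83.8 CPM (-0.18), again without overlap. Ccl17, which attracts Th2 cells, overlapped, at 6.89, 7.57 and 13.5 CPM against 4.02, 6.76 and 6.16 CPM (-0.72, adjusted p = 0.74 in edgeR). Without GSD061 alone 2 chemokine list members were lower and 0 higher, without GSD061 and GSD097 5 and 0 with a median of -0.23, and in Y-marked mice 6 and 1. Of 26 genes of interleukin-17 signalling 4 were lower and 0 higher, and of 48 in TNF and NF-kB signalling 2 were lower and 0 higher. The lower share of the latter, 4.17%, was near the 3.43% of all autosomal genes. The TNF and NF-kB list had a median of -0.04, and without GSD061 and GSD097 7 of 49 were lower with a median of -0.23. It had 5 lower members without WT-O2 lung GSD403 and 5 in Y-marked mice. The interleukin-17 list had 7 lower members without GSD061, 6 without GSD403 and 2 without any 1 of GSD097, GSD405 and GSD406.

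Genes of the pyroptosis machinery other than Gsdmd itself were mostly near the WT-O2 level. Of 30 tested inflammasome, caspase, gasdermin and interleukin-1 family genes, 2 were lower and 0 higher at an unadjusted p under 0.05, and the median was -0.01. The second after Gsdmd was Naip2, a sensor of bacterial type III secretion proteins, at 8.80, 6.43 and 8.92 CPM in WT-O2 and at 5.91, 6.66 and 5.52 CPM in KO-O2 lungs, with overlap (-0.42, adjusted p = 0.76 in edgeR). Hmgb1, a nuclear protein released by dying cells, was at 234, 220 and 210 CPM against 240, 248 and 257 CPM (0.17, adjusted p = 0.83 in edgeR). In room air 11 of the 30 were lower and 0 higher in KO-RA. Of 34 genes of apoptosis and necroptosis, 1 was higher and 2 lower. These were Bcl2l11 (the death activator Bim, 0.19), Endog (the mitochondrial nuclease endonuclease G, -0.63) and Mlkl (the pore former of necroptosis, -0.28), and none passed the adjusted threshold in edgeR. Endog was at 12.6, 16.8 and 12.6 CPM in WT-O2 and at 8.89, 9.81 and 8.36 CPM in KO-O2 lungs, without overlap.

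Airway genes differed through a few secreted proteins. Of 23 airway epithelium markers, 7 were lower and 0 higher at an unadjusted p under 0.05, with a median of -0.22. Muc5b, the main gel-forming mucin of healthy airways, was at 57.5, 36.8 and 90.7 CPM in WT-O2 and at 16.1, 18.2 and 15.9 CPM in KO-O2 lungs (-1.88, adjusted p = 0.54 in edgeR). Bpifb1, a secreted lipid-binding defence protein, was at 67.7, 40.2 and 131 CPM against 15.5, 29.5 and 19.4 CPM (-1.90). Clca1, a secreted regulator of chloride channels made by goblet cells, is not in this list. It was at 29.2, 42.9 and 327 CPM against 1.40, 8.25 and 4.42 CPM (-4.83, adjusted p = 0.59 in edgeR). None of the 3 genes overlapped between the groups, and WT-O2 lung GSD406 was the highest for each. With GSD061 and GSD097 left out, none of the airway list was under an unadjusted p of 0.05 in edgeR in either direction, and its median was -0.04. The summed level of the list was 14986, 14598 and 14115 CPM in WT-O2 and 10528, 12077 and 15815 CPM in the KO-O2 lungs GSD061, GSD097 and GSD493, so GSD493 lay above every WT-O2 lung. The count of lower airway members was 1 without GSD061, 2 without GSD406, 4 without GSD403 and 6 in Y-marked mice, and without GSD406 the log2 difference of Clca1 was -2.95.

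The alveolar epithelium differed little. Of 20 type 1 cell markers, 2 were higher and 0 lower with an unadjusted p under 0.05, with a median of 0.07. They were Cldn18, the tight junction claudin of the alveolar barrier, at 1063, 1164 and 960 CPM in WT-O2 and 1258, 1191 and 1257 CPM in KO-O2 lungs (0.22), and the water channel Aqp5, at 201.4, 234 and 227 CPM against 246, 246 and 273 CPM (0.21). Both were without overlap and neither passed the adjusted threshold in edgeR (adjusted p = 0.76 for each). Of 21 type 2 cell markers, 1 was higher and 2 lower, with a median of -0.15. Cebpa, a transcription factor of surfactant-producing cells, was at 131, 135 and 146 CPM in WT-O2 and at 101, 123 and 113 CPM in KO-O2 lungs (-0.29, adjusted p = 0.56 in edgeR), and the zinc and manganese carrier Slc39a8 was at 134, 142 and 141 CPM against 160, 159 and 166 CPM (0.22). Transitional epithelium markers had 0 higher and 1 lower of 17.

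By number, Wnt genes had the most higher members after the erythroid list. Of 53 tested, 9 were higher and 2 lower with an unadjusted p under 0.05, with a median of 0.09, and none passed the adjusted threshold in edgeR. Tcf7, a transcription factor that acts with β-catenin and is also a T cell gene, was at 42.3, 38.2 and 43.2 CPM in WT-O2 and at 52.1, 59.5 and 47.7 CPM in KO-O2 lungs (0.36, adjusted p = 0.46 in edgeR). Rnf43, a ubiquitin ligase that removes Wnt receptors, was at 21.9, 21.9 and 24.7 CPM against 29.9, 26.6 and 29.0 CPM (0.32). Frzb, a secreted antagonist that binds Wnt ligands, went the other way, at 4.47, 4.64 and 4.90 CPM against 1.68, 2.73 and 1.71 CPM (-1.20, adjusted p = 0.30 in edgeR). The groups overlapped for none of the 3. In room air the Frzb difference was 0.52, and the difference between the exposures had an adjusted p of 0.42 in edgeR. Without GSD061 or GSD406 alone 6 Wnt genes were higher and 2 lower. With both GSD061 and GSD097 left out, 7 Wnt genes were higher and 3 lower, and in Y-marked mice 4 and 1.

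Matrix and vessel genes gave scattered differences. Of 57 metallopeptidases and their inhibitors, 3 were higher and 7 lower with an unadjusted p under 0.05, and of 61 matrix genes 1 was higher and 6 lower, with medians of 0.02 for both. Mmp3, stromelysin-1, was at 33.2, 27.8 and 41.6 CPM in WT-O2 and at 17.4, 17.4 and 18.8 CPM in KO-O2 lungs (-0.94, adjusted p = 0.40 in edgeR), and Mmp19 was at 38.9, 48.9 and 45.0 CPM against 29.2, 32.9 and 32.4 CPM (-0.49). Neither overlapped. Among the matrix genes, Mfap5, a protein of elastic microfibrils, was at 136, 128 and 124 CPM against 96.4, 113 and 98.8 CPM (-0.33), and Col18a1, the source of endostatin, was at 433, 415 and 563 CPM against 383, 401 and 349 CPM (-0.32). Of 40 genes of vascular growth and tone, 3 were higher and 4 lower. Nos3, the endothelial nitric oxide synthase, was at 55.2, 61.0 and 76.1 CPM in WT-O2 and at 43.7, 51.4 and 36.8 CPM in KO-O2 lungs (-0.54, adjusted p = 0.36 in edgeR). In room air the order of Nos3 was the reverse, with 53.9, 44.4 and 46.5 CPM in WT-RA and 61.4, 65.7 and 59.6 CPM in KO-RA, and the difference between the exposures, -0.91, had an unadjusted p of 0.00022 and an adjusted p of 0.28 in edgeR. Arg2, an arginase that competes with nitric oxide synthases for arginine, was at 9.27, 10.4 and 8.41 CPM against 5.88, 7.47 and 6.25 CPM in hyperoxia (-0.52). Tagln, a marker of smooth muscle, was at 340, 380 and 414 CPM against 284, 318 and 208 CPM (-0.48), and 2 of the 24 smooth muscle and pericyte markers were lower and 1 higher. With both GSD061 and GSD097 left out, that list had 8 lower and 0 higher members of 24, with a median of -0.13 beside -0.01 in all lungs. For matrix genes the number of lower members was 3 without GSD097 and 2 without GSD406, and the vascular list had 0 higher members without GSD405 or GSD406 and 6 in Y-marked mice.

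Stress and growth pathways had medians from -0.10 (HIF targets and glycolysis) to 0.05 (PI3K-Akt and growth factors). Lower members made up 15.62% of the HIF list and 9.80% of the NRF2 list, beside 3.43% of all autosomal genes. Of 51 antioxidant enzymes and NRF2 targets, 5 were lower and 0 higher at an unadjusted p under 0.05 (median -0.08), with Akr1b8, an aldo-keto reductase, at 97.5, 112 and 119 CPM in WT-O2 and at 89.5, 90.5 and 84.1 CPM in KO-O2 lungs (-0.31, adjusted p = 0.55 in edgeR). Of 32 HIF targets and glycolysis genes, 5 were lower and 0 higher (median -0.10), among them the glucose carrier Slc2a1 at 42.2, 47.7 and 43.0 CPM against 38.8, 38.9 and 33.1 CPM (-0.26). Both genes were without overlap and neither passed. For p53 targets the counts were 2 higher and 1 lower of 27, with Zmat3 at 0.23, Ei24 at 0.23 and the stress cytokine Gdf15 at -0.87 on the log2 scale. Gdf15 was at 40.2, 55.1 and 118 CPM in WT-O2 and at 49.5, 38.1 and 29.4 CPM in KO-O2 lungs, with overlap. Cell cycle genes had 2 higher and 0 lower of 54, with a median of 0.04. Of 51 PI3K-Akt and growth factor genes 2 were higher and 1 lower, including the receptor Igf1r at 89.9, 83.8 and 77.6 CPM against 102, 100 and 100 CPM (0.27) and the transcription factor Foxo3 at 199, 176 and 146 CPM against 136, 124 and 133 CPM (-0.40). In room air the Foxo3 log2 difference was 0.70 in the other direction, and the difference between the exposures, -1.10, had an unadjusted p of 0.00046 and an adjusted p of 0.28 in edgeR. Circadian clock genes and the channels of the connexin and pannexin families had 0 members under an unadjusted p of 0.05 in edgeR in either direction. The number of lower NRF2 list members was 1 without GSD406 or GSD493, 9 without GSD403 and 13 in Y-marked mice, where the median was -0.16. That of the HIF list was 1 without GSD493, 2 without GSD405 or GSD406 and 3 without GSD061 or GSD061 and GSD097.

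Markers of other cells and tissues were read in the same lungs. Of 30 lymphocyte markers, 6 were higher and 2 lower with an unadjusted p under 0.05 (median 0.12), and with GSD061 and GSD097 left out none was, in either direction, in edgeR. Trbc2, a T cell receptor constant region, was at 4.36, 3.96 and 3.17 CPM in WT-O2 and at 5.11, 8.25 and 5.39 CPM in KO-O2 lungs (0.70, adjusted p = 0.50 in edgeR). The summed lymphocyte level overlapped, at 315, 303 and 299 CPM against 314, 308 and 312 CPM. Of 15 liver genes, 5 were higher and 1 lower, and they were high in a single lung. Ahsg, the plasma protein fetuin-A, was at 0.375, 0.550 and 0.709 CPM in WT-O2 and at 47.4, 0.885 and 0.301 CPM in KO-O2 lungs, and Apoa2, an apolipoprotein of plasma, was at 0.205, 0.103 and 0.304 CPM against 7.35, 0.496 and 0.468 CPM. GSD061 was the high lung for both, and without GSD061 and GSD097 the liver list had a median of -0.12 (-0.10 without GSD061 alone) with 0 members under an unadjusted p of 0.05 in edgeR. Of 11 fat genes, some of which are also in the alveolar macrophage list, 3 were lower and 0 higher with a median of -0.74. Retn, the hormone resistin of fat cells, was at 1.09, 0.826 and 0.709 CPM in WT-O2 and at 0.140, 0.389 and 0.268 CPM in KO-O2 lungs (-1.71, adjusted p = 0.77 in edgeR), and Plin5, a lipid droplet protein, was at 2.52, 2.24 and 1.76 CPM against 1.19, 1.42 and 1.54 CPM (-0.65).

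The remaining lists are given by their counts of higher and lower members at an unadjusted p under 0.05. Over all autosomal genes the shares were 2.75% higher and 3.43% lower. Among cells of vessels and stroma, endothelium had 0 and 3 of 32, lymphatic endothelium 0 and 2 of 12, fibroblasts and myofibroblasts 1 and 2 of 35, and mesothelium 0 and 0 of 14. Among blood cells, the megakaryocyte and platelet list had 0 and 2 of 20, and the mast cell, basophil and eosinophil list 0 and 1 of 14. Muscle and thymus RNA gave 0 and 0 of 20 for heart, 0 and 1 of 10 for skeletal muscle and 0 and 0 of 9 for thymus. Of the other processes, the integrated stress and unfolded protein response had 0 and 3 of 32, heat shock genes 0 and 1 of 19, retinoid genes 0 and 2 of 29 and glucocorticoid-responsive genes 1 and 2 of 19. The last list had a median of -0.31, and Hsd11b1, the enzyme that regenerates active glucocorticoid, was at 171, 145 and 179 CPM in WT-O2 and at 110, 136 and 131 CPM in KO-O2 lungs (-0.39, adjusted p = 0.74 in edgeR). Genes that vary between B6 substrains had 2 and 2 of 16. The median of the glucocorticoid-responsive list was -0.10 without WT-O2 lung GSD405, -0.18 without GSD493 and -0.48 without GSD061 and GSD097. For megakaryocytes and platelets the median was -0.51 without GSD061 and GSD097, with GSD493 as the only KO-O2 lung. No member of these lists passed the adjusted threshold in edgeR on all 12 lungs.

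**Figure D5:**
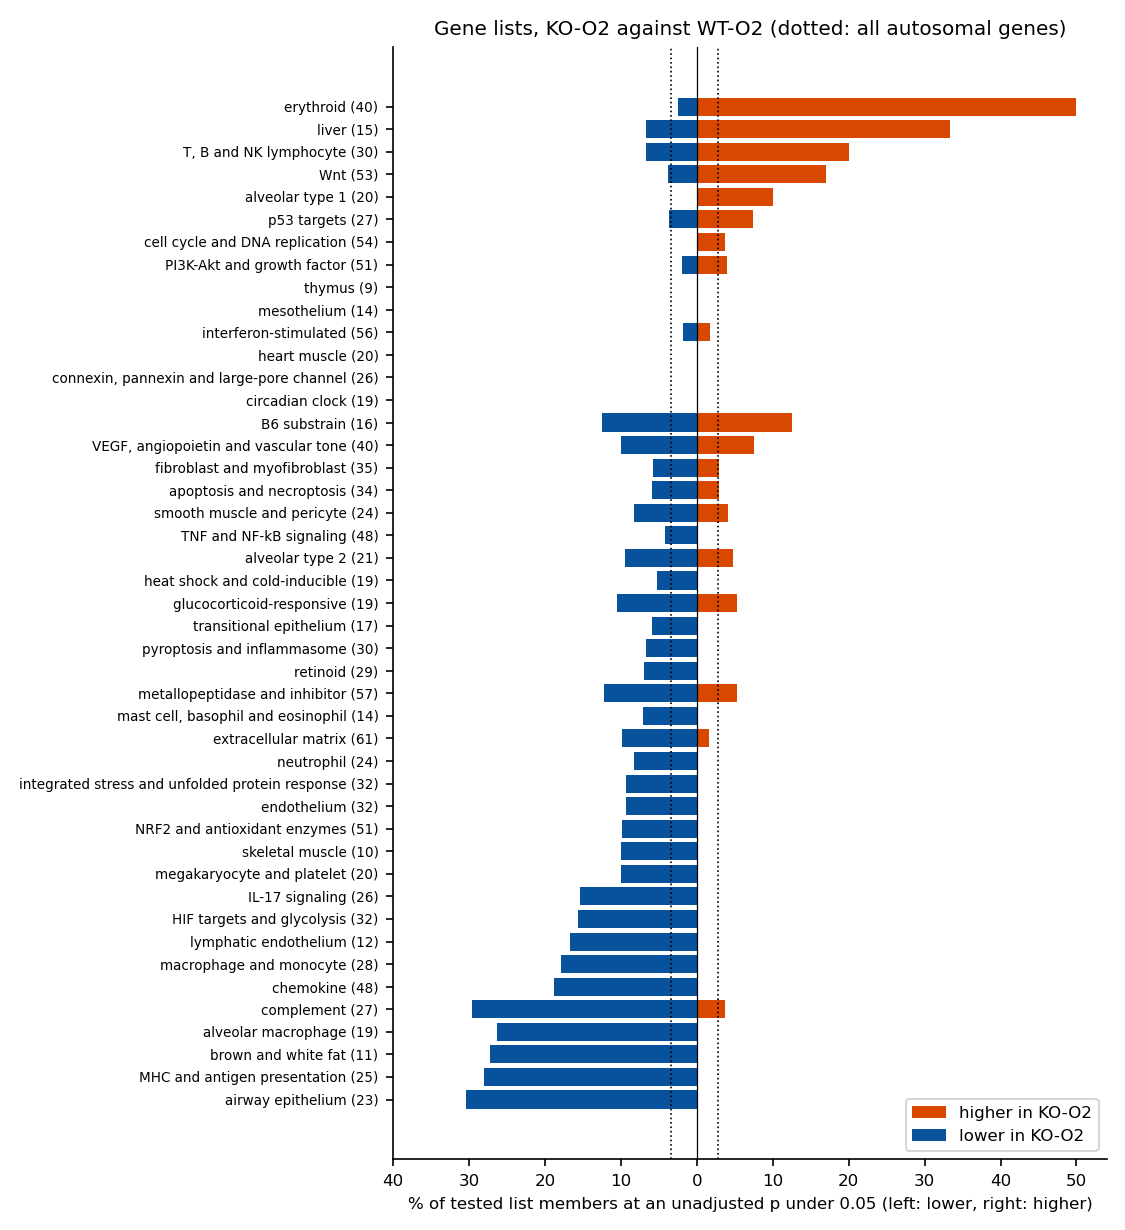
Autosomal members of each gene list (y axis, number tested in brackets) with an unadjusted p under 0.05, higher (right) or lower (left) in KO-O2, as a percentage of those tested (x axis), with the share over all autosomal genes, 2.75% higher and 3.43% lower, as dotted lines. The erythroid list extends farthest to the right, with 20 of 40 members, and complement, airway, antigen presentation and fat genes extend to the left.

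Of the genes that the study measured by qRT-PCR in lung, Slc4a1 is given with the erythroid genes and Trem2 with the macrophage markers, while Alas2 lies on X and was left out with the other genes that are not autosomal. Edn1, the vasoconstrictor endothelin-1, was at 50.6, 57.3 and 62.6 CPM in WT-O2 and at 57.2, 60.8 and 36.0 CPM in KO-O2 lungs (-0.15, adjusted p = 0.96 in edgeR). Mif, macrophage migration inhibitory factor, was at 99.0, 144 and 119 CPM against 99.2, 106 and 111 CPM (-0.19, adjusted p = 0.93 in edgeR). Pik3cg, the catalytic PI3-kinase subunit of leukocytes, was at 15.5, 11.3 and 11.8 CPM against 12.6, 13.4 and 12.3 CPM (-0.01). The groups overlapped for each of these 3 genes, and the differences were within the spread between mice.

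The same genotypes were also compared in mice that the hyperoxia comparison did not use. Sex was not balanced in the room-air lungs either, with 2 of 3 KO-RA and 0 of 3 WT-RA mice Y-marked. Of the 1000 autosomal genes with an unadjusted p under 0.05 in hyperoxia, 597 (59.7%) had the same sign in KO-RA against WT-RA lungs, beside 54.2% of all 16202 genes. In the retinas the same sign was found for 59.7% under 75% O2 and 63.6% in room air of the 893 such genes tested there, beside 53.5% and 57.6% of all autosomal genes tested. The 5 genes that follow, grouped after their values were seen, had the same sign of difference in the lungs of both exposures and in both retina comparisons. Gm16867, a predicted gene, was at 7.26, 2.20 and 6.59 CPM in WT-O2 and at 1.16, 1.17 and 1.27 CPM in KO-O2 lungs (-2.15, adjusted p = 0.30 in edgeR). It fell by 2.78 on the log2 scale in room-air lungs (adjusted p = 0.035 in edgeR) and by 2.36 in hyperoxia-exposed retinas (adjusted p = 0.017 in edgeR). Each KO lung of either exposure was below each WT lung for Gm16867. Wdfy1, an endosomal protein, was at 34.3, 33.2 and 15.7 CPM in WT-O2 and at 46.4, 44.7 and 48.9 CPM in KO-O2 lungs (0.75, adjusted p = 0.79 in edgeR), differed by 0.64 in room-air lungs and rose by 0.71 in hyperoxia-exposed retinas (adjusted p = 0.070 in edgeR). Entpd4b and Entpd4, near-identical genes for a Golgi nucleotidase between which reads may be split, differed by -0.36 and -0.46 in hyperoxia-exposed lungs and by -0.74 (adjusted p = 0.014 in edgeR) and -0.61 in room-air lungs. The Gsdmd mutation and any other genetic difference between the genotypes cannot be told apart. Gm15446, a predicted zinc finger gene, was at 0.818, 0.688 and 0.507 CPM in WT-O2 and at 7.07, 3.22 and 8.96 CPM in KO-O2 lungs (3.25, adjusted p = 0.36 in edgeR), and its log2 differences were 2.03 in room-air lungs and 3.52 in hyperoxia-exposed retinas (adjusted p = 0.14 in edgeR).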

How the data were processed

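Total RNA of 12 lungs and 12 retinas, 3 mice a group, was sequenced. The authors deposited estimated counts per gene, which they made with kallisto and tximport (versions not given in the sources used here). The labels name mm10, while the gene identifiers match the Ensembl GRCm39 release named in the study's supplement. GRCm38 annotation gave symbols and chromosomes for 35868 of the 36109 lung genes (99.33%), and no coordinates of the files' build are printed. Kallisto shares reads among similar transcripts, so near-identical copies are uncertain.

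Counts were rounded and tested with edgeR 4.0.16 (R 4.3.3, TMM, filterByExpr by group, quasi-likelihood test, Benjamini-Hochberg adjustment over all genes tested). All 12 lungs were fitted together, with a separate fit of the retinas (19173 genes). A prior count of 2 was used only for log2 CPM, in the erythroid term and the spread of list medians. Genes at an adjusted p under 0.1, an unadjusted p under 0.05 and a fold of at least 2 were called. Standard errors are the log2 difference divided by the square root of F. Alternatives used limma 3.58.1 (voom), DESeq2 1.42.0, RLE factors, other filters, covariates and sample sets. The script was tested on simulated data. Figures were drawn with matplotlib 3.10.9 in Python 3.11.15.

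Named autosomal genes were those called, the 10 with the smallest p and the 5 with the largest folds in each direction (mean of at least 1 CPM, unadjusted p under 0.05, groups not overlapping), the qRT-PCR genes, at most 3 of each of 45 lists by smallest p, and the 5 tested neighbours on each side of Gsdmd. Not all are printed, and 3 erythroid genes that count in the totals are not reported here by name. The members, lists and alternatives were chosen with earlier results of these data known. Mice with Y-linked genes above 20 CPM in sum were taken as male. Every library is 1 animal, and lung replicates differed by more than sampling noise (chi-square per degree of freedom 14.3 to 50.9). Intervals are not given for single libraries, and counting error is a small part of the spread between mice at totals of 28763450 to 29604069 counts a lung.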

Additional observations from a re-analysis of the deposited data

How the results depend on the processing

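Against 3 autosomal genes called with edgeR on all 12 lungs, DESeq2 called 27, a fit of only the 6 hyperoxia lungs 7, the mean erythroid level as a term 0 (edgeR, with 0 at an adjusted p under 0.1), and no fold threshold 6. The 7 of the hyperoxia lungs alone were Gsdmd, Zbtb16, Vmn1r88, Ccl28, Tmem267, Gm15446 and Lrmda. Leaving out each lung in turn gave 1 to 21 calls, and 655 to 1261 autosomal genes at an unadjusted p under 0.05. In alternatives chosen after seeing the data, 1 was called without GSD061 and GSD097 and 40 in mice with Y-linked expression alone. Gsdmd was below an adjusted p of 0.1 in 21 of 22 settings, with log2 differences from -1.48 to -1.01, and missed it with the erythroid term (-1.01, adjusted p = 0.35 in edgeR). Vmn1r88 passed in 15 settings, Lrmda in 17, Sos2 in 12, C6 in 9 and Zfp395 in 8. The direction reversed with the erythroid term for Slc4a1 (-0.13), Apoa2 (-0.037) and Ahsg (-2.54), for Ahsg also without GSD061 and GSD097 (-0.85), for Edn1 without 1 lung at a time (-0.29 to 0.045), and for Pik3cg with limma-voom (0.0016), the sex term (0.16), Y-linked mice alone (0.11) and 1 lung left out (-0.10 to 0.14). The erythroid term is the mean log2 level of the erythroid list, and Slc4a1 is a member of it, so its reversal there is no separate result. That term also moved with genotype, so values with it cannot tell genotype and erythroid level apart. The causes were not tested. Other values of single genes stayed on their side of the threshold 1876 times, weakened 49 and strengthened 64 times, and medians of lists moved by more than their spread 42 times and not 948 times. No paired analysis was possible because the animal numbers are not shared between the groups. With 3 mice a group, the adjusted threshold was reached by few genes, and sex and erythroid RNA moved with genotype among the hyperoxia lungs.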
